A study of Homo sapiens with 18 samples.

Results

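Small nucleolar RNAs (snoRNAs) and small Cajal body RNAs (scaRNAs) are noncoding RNAs that ribosomes do not translate, yet their reads were counted in the ribosome footprint libraries of NCI-H1975 cells. The set described here holds the 72 genes named SNORD, SNORA or SCARNA that had at least 30 counts summed over the 9 footprint libraries, out of 553 annotated genes with such names and 61487 counted genes in all. It comprises 43 SNORD genes (the C/D class), 20 SNORA genes (the H/ACA class) and 9 SCARNA genes. The members were selected on these summed footprint counts, so their footprint levels are a description. Another 71 genes of these names had 1 to 29 footprint counts and 410 had none. The genes just inside the limit were SNORD113-7, SNORD70 and SNORD72 with 33 counts each. Just outside it lay SCARNA21 and SNORA14A with 29 and SNORA38B with 28.

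NCI-H1975 is an established human lung adenocarcinoma line. The series holds 18 libraries in 6 groups of 3, poly(A)-selected mRNA and ribosome footprints from Scramble cells, from CRISPR control cells (sgControl) and from DAMP knockout cells (sgDAMP). Scramble and sgControl cells are not labelled as carrying a knockout, and DAMP is the name the labels give to a peptide that the series title assigns to the lncRNA gene DSP-AS1. For footprints, cells were harvested after 100 µg/ml cycloheximide, which stalls ribosomes, and lysates were digested with a nuclease, passed over spin columns and depleted of ribosomal RNA. Columns of this kind separate by size and recover large particles in general. The labels do not say whether the 3 libraries of a group came from separate cultures or how many knockout clones were used.

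C/D snoRNAs guide 2′-O-methylation of ribosomal RNA by fibrillarin (FBL), with NOP56, NOP58 and SNU13 as the other core proteins. H/ACA snoRNAs guide pseudouridylation by dyskerin (DKC1), with NHP2, NOP10 and GAR1. ScaRNAs use the same proteins in Cajal bodies to modify spliceosomal snRNAs. A few members, among them the U3 genes SNORD3A and SNORD3B-1, SNORD13 and SNORA73B, act in cleavage or maturation of pre-ribosomal RNA. Most human snoRNAs and scaRNAs are released from introns of host genes, are trimmed at both ends and carry no poly(A) tail.

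Of the members, 71 could be placed by symbol on the RefSeq annotation of GRCh38.p14. All 9 scaRNAs and 19 of the 20 H/ACA members lay inside the span of a coding gene. Among the C/D members 28 lay inside a coding gene, 10 inside a lncRNA gene only and 1 inside another kind of gene. SNORD13, SNORD3A and SNORD3B-1 lay inside no other gene, and SNORD42 had no span. Ribosomal protein genes held 10 of the members. The median span was 80 bases for C/D members (67 to 237), 136 bases for H/ACA members (126 to 250) and 137 bases for scaRNAs (130 to 278).

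SCARNA3 has the largest ratio between knockout and control footprints among members with at least 30 counts over both groups, and its sequence is known in part from an annotated microRNA hairpin. SCARNA3 spans chr1:175968397-175968540 (144 bases, GRCh38.p14) inside COP1. The RefSeq hairpin of MIR1843, at chr1:175968370-175968479 on the minus strand, shares 83 bases with it, which is 57.6% of the SCARNA3 span. Capitals in the hairpin mark the shared bases, and capitals in the mature microRNA mark its seed, bases 2 to 8.
MIR1843 hairpin: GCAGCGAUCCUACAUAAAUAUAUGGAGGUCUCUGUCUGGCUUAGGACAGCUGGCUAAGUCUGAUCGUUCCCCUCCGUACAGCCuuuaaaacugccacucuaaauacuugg
hsa-miR-1843: uAUGGAGGucucugucuggc
An ACA triplet, the motif that gives the H/ACA class its name, begins 6 bases before the end of the SCARNA3 span and leaves 3 bases after it. The motif searched was ACA at that fixed distance from the end, and 1.01% of 35116 RefSeq promoter windows held it at the same distance on the given strand and 1.41% on the other. Reads of this stretch could have been assigned to either gene or to neither, since the handling of overlapping genes is not given in the sources used here.

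Depth differed between the groups. Footprint libraries held 1035159 to 1302852 gene counts each for Scramble, 6845899 to 7840852 for sgControl and 6207783 to 6864945 for sgDAMP, and mRNA libraries 10859527 to 17464782. The 3 sgControl footprint libraries differed by no more than sampling noise for any of the 32 members with enough counts, and the 3 sgDAMP libraries for none of 30. Each of these groups was therefore counted as 1 sample and its libraries were summed. The 3 Scramble footprint libraries differed beyond sampling noise at 35 of 54 members. Mitochondrial genes took 58.7%, 52.8% and 72.1% of gene counts in Scramble footprint libraries 1, 2 and 3, and coding genes only 20.2%, 19.5% and 6.37%. Reads with several positions made up 45.24% to 48.18% of footprint reads for Scramble, 23.59% to 23.73% for sgControl and 24.99% to 25.23% for sgDAMP. The targeted locus was read in every control footprint library, with 335, 291 and 226 counts of DSP-AS1 in Scramble and 175, 176 and 216 in sgControl, and had 0, 1 and 1 in sgDAMP. In mRNA its counts were 299 to 328 in sgControl and 319 to 336 in sgDAMP. Of the epithelial genes, KRT7, KRT8, KRT18, CDH1 and EGFR were expressed, while EPCAM and KRT19 and the lung lineage genes NKX2-1, NAPSA and SFTPB lay below 1 CPM in every mRNA group. Of the leukocyte genes, PTPRC and CD3E had no counts and CD68 lay below 1 CPM, while CD14 had 0.749, 4.48 and 3.91 CPM in Scramble, sgControl and sgDAMP mRNA and 11.1 CPM in Scramble footprints.

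The members took a small share of the footprint counts, and relative to all gene counts that share was larger in Scramble cells than in either CRISPR group. C/D members held 0.316% ± 0.0244 (SD, n = 3) of gene counts in Scramble footprints, H/ACA members 0.147% ± 0.087 and scaRNAs 0.0363% ± 0.0117. In sgControl footprints the shares were 0.0109% (95% Clopper-Pearson interval 0.0105 to 0.0113) for C/D, 0.0157% (0.0152 to 0.0162) for H/ACA and 0.00275% (0.00254 to 0.00298) for scaRNAs. The sgDAMP footprints gave 0.0113% (0.0109 to 0.0118), 0.0188% (0.0182 to 0.0194) and 0.00465% (0.00436 to 0.00496). The intervals cover counting error alone, with no spread between samples. The reads carry no molecular identifiers, so repeated copies of a fragment cannot be recognised and would make the intervals too narrow. In poly(A)-selected mRNA all members together held 0.00058% ± 0.000158 in Scramble, 0.000279% ± 8.53e-05 in sgControl and 0.000331% ± 0.00012 in sgDAMP (SD, n = 3 each), from 205, 145 and 172 counts. The mRNA shares depend on the denominator too. Unassigned reads made up 54.04% to 54.35% of Scramble mRNA reads, 22.24% to 23.92% in sgControl and 22.35% to 24.24% in sgDAMP. Shares of all mRNA reads were not computed. The footprint gap between Scramble and the CRISPR groups depends on the denominator, since most Scramble footprint reads were assigned to no gene. Relative to all reads of a file, C/D members held 0.0135% ± 0.000784 (SD, n = 3) in Scramble against 0.0037% in sgControl and 0.00341% in sgDAMP. H/ACA members then held 0.00632% ± 0.0038 against 0.00533% and 0.00566%, and scaRNAs 0.00156% ± 0.000522 against 0.000935% and 0.0014%, so the H/ACA shares of both CRISPR groups and the sgDAMP scaRNA share lay within 1 SD of the Scramble mean. Other short structured RNAs are a set of 3390 snRNA, 5S, 7S and similar genes. Relative to gene counts, not to all reads, they held 11.5% of Scramble, 8.52% of sgControl and 9.96% of sgDAMP footprints. Their share of all reads was not computed.

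**Figure D1:**
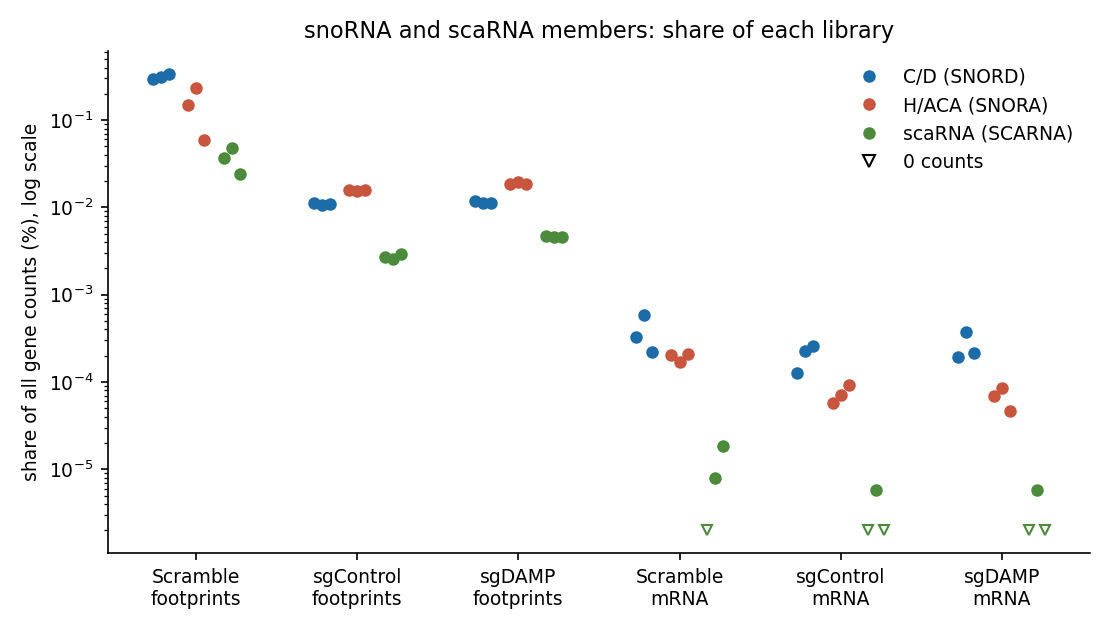
Share of each class in all gene counts of a library (percent, log axis) for the 6 groups, with 1 point per library and open triangles at 0 counts. On this scale Scramble footprints lie above the other footprints in every class, with 0.316% for C/D members against 0.0109% in sgControl, and the mRNA libraries lie lowest.

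The balance between the classes also differed. C/D counts exceeded H/ACA counts in the 3 Scramble footprint libraries, by ratios of 1.98, 1.35 and 5.76. H/ACA counts exceeded C/D counts in all other footprint libraries, with C/D to H/ACA ratios of 0.7, 0.698 and 0.686 in sgControl and 0.635, 0.572 and 0.606 in sgDAMP. Scramble library 3 stood apart, with 4438 C/D counts against 770 H/ACA counts, where library 1 had 3456 against 1747 and library 2 had 3252 against 2413. Within members the same library was lowest in CPM, the count scaled to the library's total gene counts, for 18 of the 19 H/ACA members seen in Scramble cells, and was highest for 20 and lowest for 14 of the 42 C/D members seen. It is also the Scramble library with the largest mitochondrial share and the smallest coding share, and their part in the class balance was not tested.

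A few members carried most of the reads. The 10 members with the highest counts held 64.5% of the set's footprints in Scramble, 71.0% in sgControl and 71.7% in sgDAMP. The leading member was SNORD104 in Scramble cells (1729 of 17323 counts), SNORA23 in sgControl cells (14.0%) and SNORA73B in sgDAMP cells (18.2%). Of the 72 members, 11 had no footprint in any of the 6 sgControl and sgDAMP libraries, among them SNORD82, SNORA31 and SNORD117. Conversely SCARNA23, SNORA40B, SCARNA1 and SNORD77B had none in the 3 Scramble libraries. Only 23 members had at least 30 counts both in Scramble cells and over the other 6 footprint libraries.

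**Figure D2:**
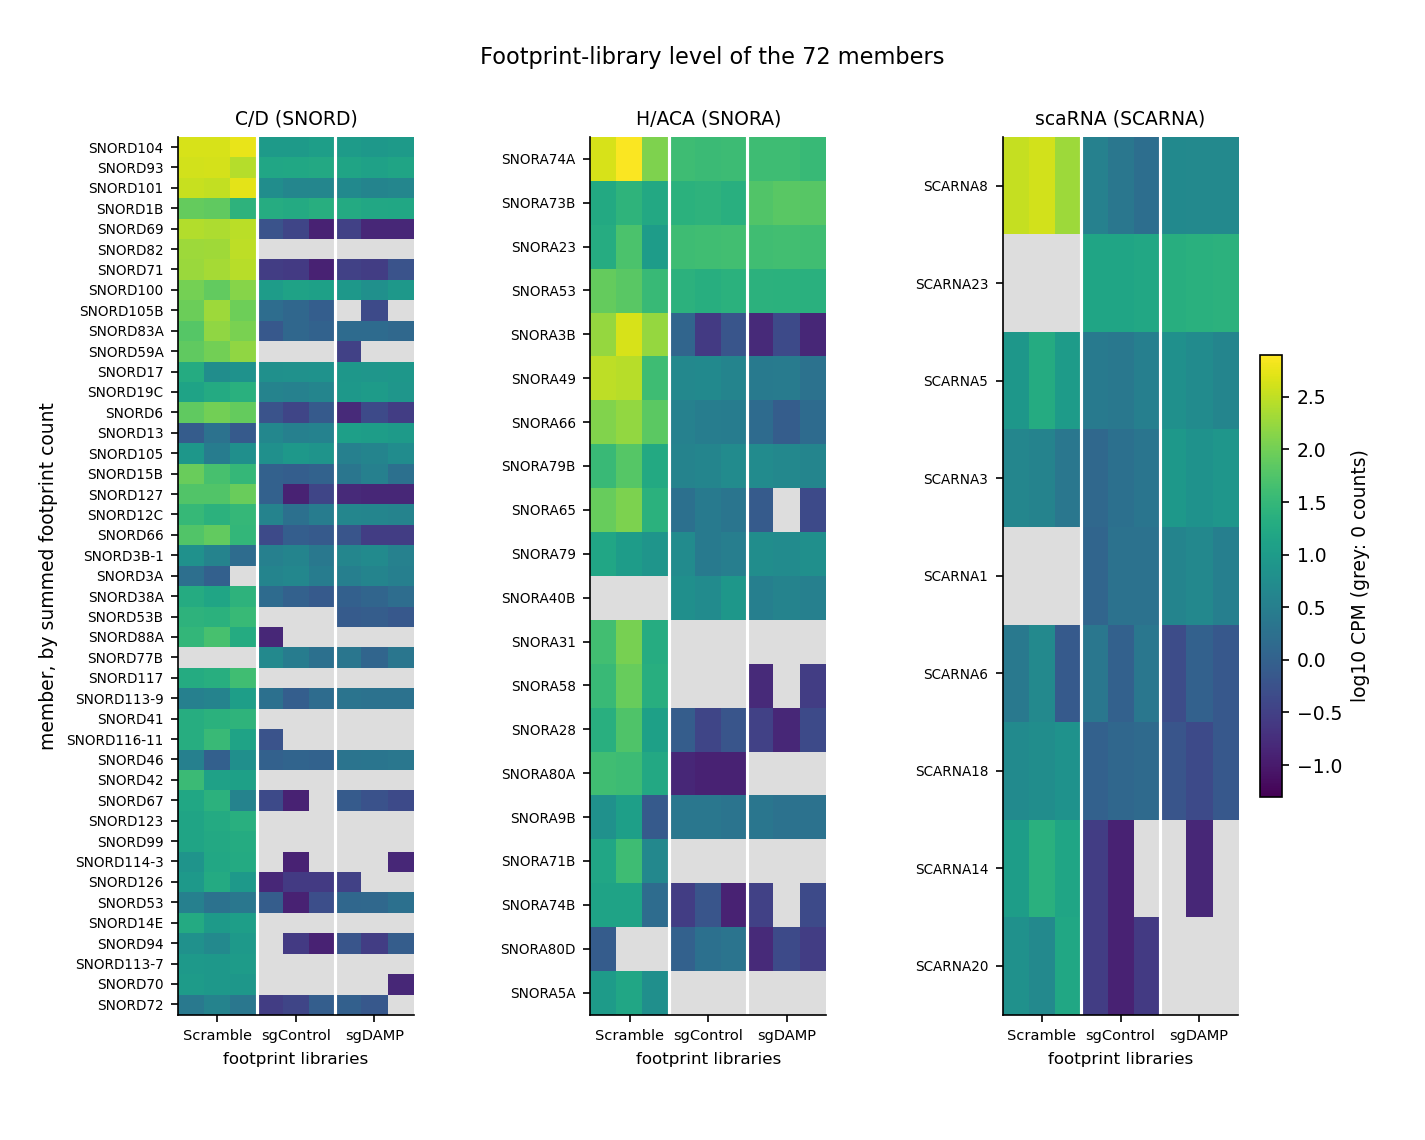
Level of each member in each of the 9 footprint libraries, as log10 CPM with grey for 0 counts, with 1 panel per class and rows ordered by summed count. SNORD82 and SNORA31 are grey in all 6 sgControl and sgDAMP columns, and SCARNA23 is grey in the 3 Scramble columns.

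Among C/D members, SNORD104, inside the host lncRNA SNHG25 on chromosome 17, had the highest summed count, 2149. Its counts were 519, 465 and 745 in Scramble, 66, 77 and 89 in sgControl and 63, 59 and 66 in sgDAMP footprints. Per length, SNORD104 was also the highest C/D member in Scramble cells at 6080 CPM per kb, ahead of SNORD101 at 5650, SNORD93 at 5000 and SNORD69 at 3460. The order of SNORD104 and SNORD101 is not separated by the libraries, since their CPM ran from 438 to 572 and from 333 to 544 over spans of 80 and 73 bases.

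SNORD93, inside SNHG26, had 487, 445 and 350 counts in Scramble, 104, 124 and 134 in sgControl and 87, 86 and 96 in sgDAMP footprints. SNORD101, inside the ribosomal protein gene RPS12, had 425, 345 and 709, then 39, 33 and 33, then 31, 27 and 29. SNORD100, in another part of RPS12, had 124, 81 and 179 in Scramble, 73, 105 and 95 in sgControl and 54, 44 and 60 in sgDAMP. SNORD101 thus had more counts than its neighbour SNORD100 in every Scramble library and fewer in every other library.

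A group of C/D members was read almost only in Scramble cells. SNORD82, inside the nucleolin gene NCL, had 229, 208 and 398 counts there and 0 in all 6 other footprint libraries. SNORD71, inside AP1G1, had 224, 219 and 368 in Scramble and 1 to 4 in each other library. SNORD69, inside GNL3, had 307, 253 and 386 in Scramble, 4, 3 and 1 in sgControl and 2, 1 and 1 in sgDAMP. SNORD19C lies in the same gene and had fewer raw counts in Scramble, 16, 19 and 30, than in sgDAMP, 53, 70 and 56. Its CPM was still higher in Scramble, 18.3 ± 4.76 (SD, n = 3), than in sgControl (3.83) or sgDAMP (8.98). SNORD1B, inside SNHG16, was the leading C/D member of both CRISPR groups, with 139, 144 and 166 counts in sgControl and 113, 115 and 107 in sgDAMP. Its per-length level in sgControl was 233 CPM per kb, close to the 217 of SNORD93.

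The C/D members with a role in pre-ribosomal RNA processing differed in their order across the groups. SNORD13, which assists acetylation of 18S ribosomal RNA and is transcribed from its own promoter, had 1, 2 and 1 counts in Scramble, 30, 26 and 28 in sgControl and 73, 75 and 66 in sgDAMP. SNORD3A, a U3 gene required for early cleavage of the pre-ribosomal RNA, had 2, 1 and 0, then 27, 34 and 23, then 20, 27 and 22. SNORD3B-1, a near-identical U3 copy, had 8, 4 and 2, then 23, 31 and 19, then 26, 35 and 24, and its Scramble CPM of 4.05 ± 2.62 (SD, n = 3) was no lower than the 3.25 of sgControl. The U3 copies cannot be told apart with certainty, since reads with several positions were not assigned to a gene. Their other copies SNORD3C and SNORD3B-2 had 18 and 4 footprint counts and were not members. SNORD118, which acts in 28S and 5.8S maturation, and SNORD22, SNORD14B, SNORD14C and SNORD14D had no count in any library, and SNORD14A had 1 footprint. Another copy of the same RNA, the member SNORD14E inside HSPA8, had 22, 10 and 15 footprints in Scramble and 0 in the other 6 footprint libraries. For a group of libraries a count of 0 still allows up to 3 counts.

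Imprinted C/D clusters were read sparsely. Of the 48 SNORD115 genes none had a footprint, and of the 33 SNORD116 genes only SNORD116-11 had any (84). From the chromosome 14 clusters 4 of 9 SNORD113 genes and 8 of 30 SNORD114 genes were seen, with 161 and 135 footprints. SNORD113-9 was the only member of these clusters with counts in each of the 9 footprint libraries, 4, 4 and 15 in Scramble, 12, 7 and 12 in sgControl and 13 in each sgDAMP library.

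Among H/ACA members SNORA74A, inside MATR3 and SNHG4 on chromosome 5, had the highest summed count of the whole set, 3045. It was read 525, 767 and 157 times in Scramble, 270, 287 and 298 times in sgControl and 241, 270 and 230 times in sgDAMP footprints. Its Scramble level was 435 ± 310 CPM (SD, n = 3), with single libraries from 121 to 741 CPM. SNORA3B, inside the ribosomal protein gene RPL27A, had 200, 464 and 220 counts in Scramble and between 1 and 8 in each other library. SNORA49, inside EP400, had 353, 286 and 51 in Scramble, 31, 39 and 31 in sgControl and 17, 19 and 13 in sgDAMP. SNORA31, inside TPT1, had 50, 112 and 26 in Scramble footprints and none in the other footprint libraries. SNORA79B, inside CCNB1IP1, had 42, 64 and 23 in Scramble, 26, 32 and 41 in sgControl and 33, 31 and 28 in sgDAMP.

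SNORA23, SNORA73B and SNORA53 had the reverse order of raw counts, in libraries of which the Scramble ones are the shallowest. SNORA23, inside the importin gene IPO7, had 24, 54 and 14 counts in Scramble, 271, 317 and 333 in sgControl and 251, 295 and 284 in sgDAMP. SNORA53, inside the phosphate carrier gene SLC25A3, had 94, 70 and 44, then 171, 170 and 185, then 158, 167 and 161, and its Scramble CPM was still the higher at 60.3 ± 23.7 (SD, n = 3) against 23.4 in sgControl. SNORA73B, which acts in early maturation of 18S ribosomal RNA and lies inside SNHG3 and RCC1 on chromosome 1, had 21, 28 and 22, then 167, 204 and 173, then 358, 464 and 437. Per length, SNORA23 led the H/ACA class in sgControl at 217 CPM per kb, with SNORA74A at 191 and SNORA73B at 118. In sgDAMP cells SNORA73B led with 308 CPM per kb, above SNORA23 at 220. SNORA73A, a close relative in the same host pair, had no count in any library.

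Among scaRNAs SCARNA8, inside the augmin gene HAUS6, and SCARNA23, inside the DNA polymerase gene POLA1, divided the reads between the cell groups. SCARNA8 had 395, 428 and 249 counts in Scramble, 24, 18 and 13 in sgControl and 31, 33 and 33 in sgDAMP footprints, and held 86.0% of the scaRNA reads of Scramble cells. SCARNA23 had 0 in each Scramble library, 101, 117 and 127 in sgControl and 136, 157 and 168 in sgDAMP, and held 55.8% and 49.8% of scaRNA reads in these 2 groups. SCARNA1, inside PPP1R8, followed the pattern of SCARNA23 with 0 in Scramble, 8, 15 and 15 in sgControl and 24, 32 and 22 in sgDAMP. SCARNA14 and SCARNA20 followed that of SCARNA8, with 13, 24 and 19 and with 8, 5 and 21 counts in Scramble against 0 to 2 in each other library. SCARNA5 and SCARNA6, composite guides that lie in the same host ATG16L1, had 43 and 9 counts in Scramble cells. SCARNA2, SCARNA13, SCARNA9 and SCARNA12 had no count in any library, and SCARNA7 and SCARNA10 had 20 and 13 footprints.

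Scramble and sgControl are both controls, and the comparison between them shows how far member levels moved without the knockout. Of the 69 members with at least 30 counts over these 6 libraries, 54 had every Scramble library above every sgControl library in CPM, 7 had every Scramble library below and 8 overlapped. Over all 12817 genes with that count, 9.45% lay wholly higher in Scramble and 66.1% wholly lower. A member that reached 30 counts through the shallow Scramble libraries alone had to have the higher CPM there, so the count of 54 describes the rule as well as the cells. By class, 33 of 40 C/D members, 15 of 20 H/ACA members and 6 of 9 scaRNAs lay wholly higher in Scramble. With all reads of a file as the denominator, an alternative chosen after seeing the data, 40 members lay wholly higher and 21 wholly lower in Scramble, against 1.73% and 93.6% of all genes. Library preparation, depth and cell group cannot be told apart in this comparison, and no test was made.

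The largest ratios belonged to members with few or no sgControl counts. SNORD71 was 1020-fold and SNORD69 749-fold higher in Scramble CPM. SNORD82 was at least 1750-fold and SNORD59A at least 835-fold higher, lower bounds set by a floor of 3 counts over the sgControl group. In the H/ACA class SNORA3B was 393-fold higher and SNORA31 and SNORA58 at least 425-fold and at least 350-fold. For the members with many counts in both groups the ratios were smaller, 47.1 for SNORD104, 23.0 for SNORD93, 11.4 for SNORA74A, 3.06 for SNORD1B and 2.57 for SNORA53. Relative to all reads of a file the same ratios were 5.93 for SNORD104, 2.9 for SNORD93 and 1.45 for SNORA74A, and turned below 1 for SNORD1B (0.388) and SNORA53 (0.326), while SNORD71 and SNORD69 stood at 129 and 94.3. SNORA73B and SNORA23, with ratios of 0.849 and 0.677, and SNORD17, with 1.62, were among the members whose libraries overlapped.

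The 7 members lower in Scramble were SCARNA23, SNORD13, SNORA40B, SNORD3A, SCARNA1, SNORD77B and SNORA80D. SCARNA23 was at least 18-fold lower and SNORA40B at least 7.73-fold lower, with the same floor applied to Scramble. SNORD13 and SNORD3A had Scramble to sgControl ratios of 0.316 and 0.237.

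Longer members had smaller ratios, as a description over members that share libraries and were split at 150 bases after their values were seen. The 12 members of at least 150 bases had a median Scramble to sgControl ratio of 1.54 (0.237 to 350), and 3 of them exceeded 10. The 56 shorter members had a median of 68.9, and 40 exceeded 10, with bounds entered at their value. Spearman's rho between span and ratio was -0.37 over 68 members and -0.42 over the 50 whose ratio is not a bound. Within the classes it was -0.21 over 39 C/D members and -0.23 over 20 H/ACA members. In Scramble 54 members had at least 30 counts, and only 23 had that many also over the other footprint libraries. A member that reached the limit through Scramble alone had to be higher there, so these medians, counts and correlations describe the rule as well. Among the exceptions, SNORA58 (236 bases) had a bound of 350, while SCARNA23 (130 bases) and SNORA40B (128 bases) were absent from Scramble. Fragment lengths were not used here, and the part of span in these ratios was not tested further.

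**Figure D3:**
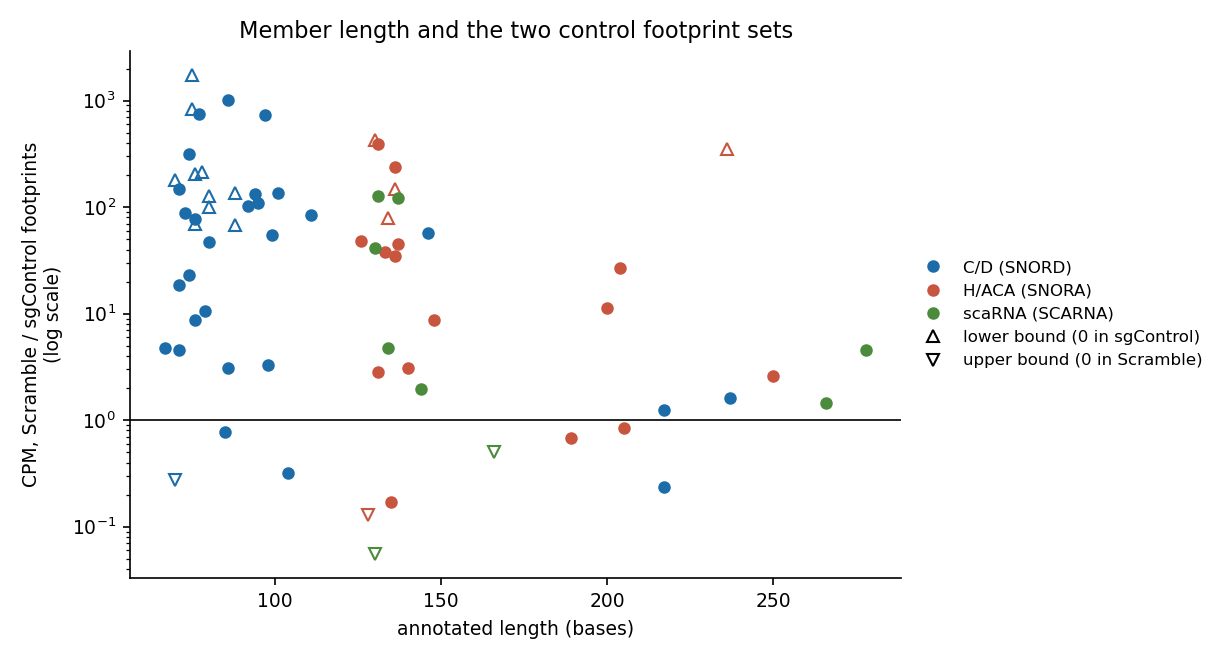
Scramble to sgControl footprint CPM ratio (log axis) against the annotated span of 68 members in bases, coloured by class, with open triangles for bounds against a group at 0. The 12 members of at least 150 bases have a median ratio of 1.54 and the 56 shorter ones 68.9, with wide spread within each class. Members that reached the count limit through Scramble alone had to be higher there.

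The comparison of sgDAMP with sgControl asks how member footprints differ with the DAMP knockout. Each group counts as 1 sample, so no p-value is given, and a member was called when the ratio of its summed counts passed 2-fold after TMM scaling, a trimmed mean that equalises the bulk of genes. Of 39 members with at least 30 counts over both groups, 6 lay above 2 and 9 below 0.5. These are 15.4% and 23.1% of the 39, against 7.19% and 5.47% of all 14289 genes with that count. With at least 100 counts, 4 of 26 members lay above 2 (15.4%) and 3 below 0.5 (11.5%), against 3.64% and 2.87% of 10893 genes. Scaled by total gene counts the split was 8 above and 6 below, and by coding counts 9 above and 5 below, so the direction of the majority depends on the scaling. The calls below 0.5 of SNORA49 (0.548), SNORA40B (0.526) and SNORD105 (0.571) end under total counts and under coding counts. That of SCARNA18 ends under coding counts. Both scalings raise every ratio by a constant factor, so the 6 calls above 2 had to hold and are not shown to be firmer. The median log2 ratio was -0.17 over the 39 members and -0.01 over all genes under TMM, and scaling by total counts adds 0.23.

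The classes had different balances under TMM, and these splits move with the scaling. C/D members split 11 above and 9 below a ratio of 1 (median log2 ratio 0.04, 20 members), with 4 past 2-fold upward and 2 downward. H/ACA members split 2 above and 10 below (median -0.32, 12 members), with 1 past 2-fold upward and 5 downward. That split rests on TMM, since by total counts SNORA79B moved from 0.893 to 1.05. By coding counts SNORA74A moved from 0.833 to 1.01. ScaRNAs split 5 above and 2 below (median 0.70, 7 members), with 1 upward and 2 downward. Summed over members, the ratio was 0.886 (95% counting interval 0.836 to 0.939) for C/D, 1.02 (0.974 to 1.07) for H/ACA and 1.44 (1.3 to 1.6) for scaRNAs, and 1.04, 1.2 and 1.69 by total counts. SNORA73B alone contributed 1259 of the 3739 H/ACA counts in sgDAMP. Under TMM the summed H/ACA ratio thus lay near 1 while 10 of 12 members lay below 1. The other short structured RNAs had a summed ratio of 0.995 and the snoRNA host lncRNAs 0.877.

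**Figure D4:**
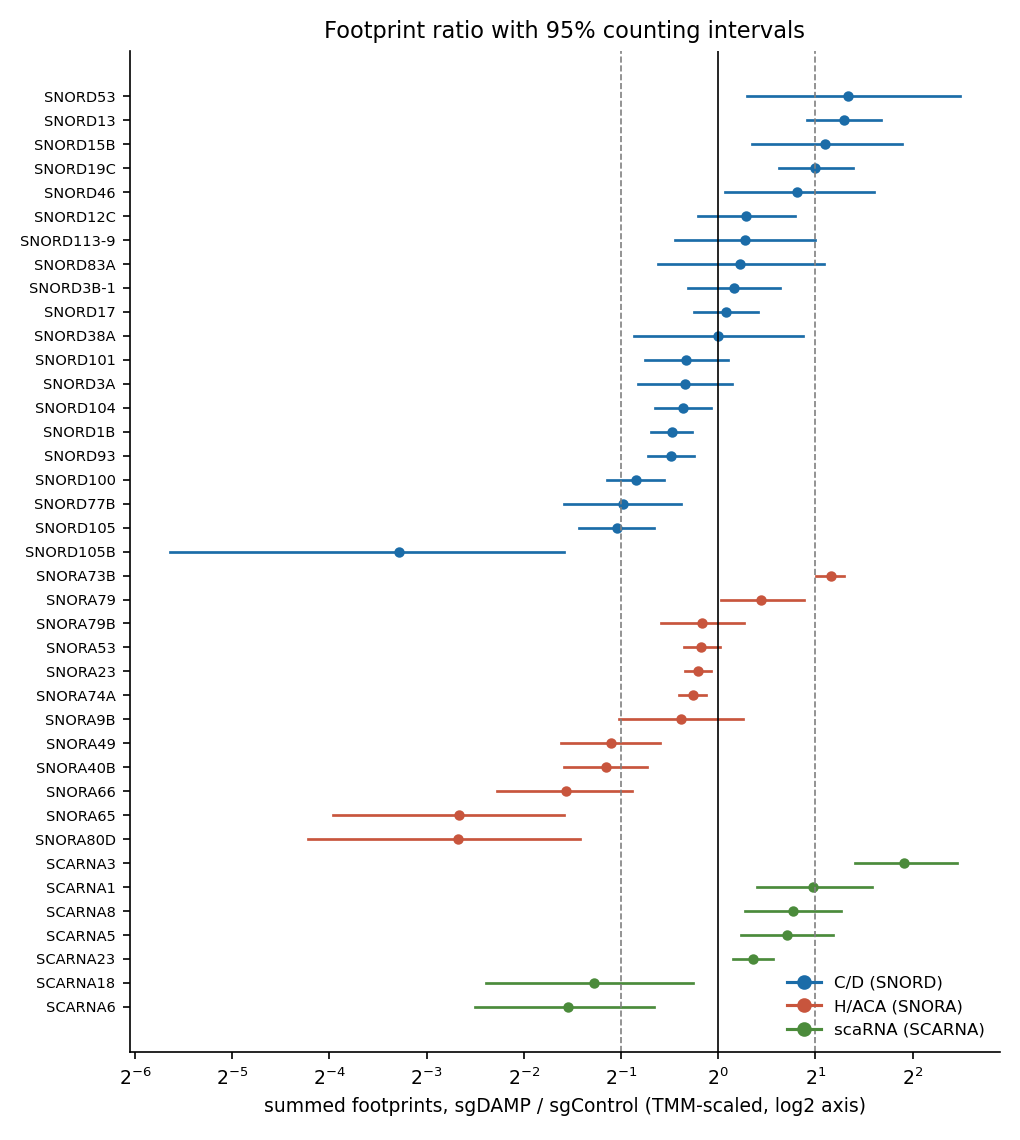
Ratio of sgDAMP to sgControl summed footprint counts (TMM scaled, log axis) for the 39 members with at least 30 counts, by class, with 95% counting intervals as bars. SCARNA3 at 3.77 lies highest and SNORD105B at 0.103 lowest, and 12 of 39 intervals lie above 1 and 16 below, against 26.9% and 29.3% of all genes.

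Above 2, SCARNA3 had 9, 14 and 17 counts in sgControl and 53, 48 and 56 in sgDAMP. Its ratio was 3.77 (2.65 to 5.48), while its host COP1, a ubiquitin ligase gene, had 1.15. SNORD13 had 84 and 214 summed counts, a ratio of 2.45 (1.89 to 3.19). SNORD19C had 26, 28 and 32 against 53, 70 and 56 counts, a ratio of 2.0 (1.54 to 2.62) that sits at the limit, and its host GNL3 had 0.877. SNORD53, inside WDR43, and SNORD15B, inside RPS3, had ratios of 2.53 (1.23 to 5.62) and 2.14 (1.27 to 3.72) from 11 against 29 and 22 against 49 counts. Under the count limit, SNORD53B, a copy of SNORD53 in the same host, had 0 in each sgControl library and 5, 6 and 5 in sgDAMP, at least 5.13-fold higher, and SNORD94, inside PTCD3, had 3 against 12 counts (3.85, 1.04 to 21.2).

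SNORA73B had 544 summed counts in sgControl and 1259 in sgDAMP, a ratio of 2.23 (2.01 to 2.46). Its host span RCC1, a chromatin-bound regulator of the GTPase Ran, had 32527 and 1954 footprint counts, a ratio of 0.0578 (0.0552 to 0.0605). The mRNA counts of RCC1 were 1383, 1123 and 1424 in sgControl and 1361, 1646 and 1494 in sgDAMP. SNHG3, the lncRNA that also contains SNORA73B, had 591 and 544 footprint counts. SNORA73B and RCC1 thus had ratios on opposite sides of 1 from the same region, and the part of overlapping gene models in these counts was not tested.

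Below 0.5, SNORD105B had 11, 10 and 7 counts in sgControl and 0, 3 and 0 in sgDAMP, a ratio of 0.103 (0.02 to 0.333). SNORD105, in the same host PPAN, had 44, 68 and 58 against 21, 27 and 38, a ratio of 0.486 (0.371 to 0.634). SNORA65, inside RPL12, had 12, 20 and 17 against 5, 0 and 3, a ratio of 0.157 (0.0642 to 0.334), and its host had 0.671. SNORA66, inside RPL5, had 24, 24 and 23 against 9, 6 and 10, a ratio of 0.339, and its host had 0.867. SNORA49 had 101 against 49 counts (0.466) and SNORA40B, inside RAB3GAP1, 148 against 69 (0.448), while the host ratios were 0.87 for EP400 and 1.46 for RAB3GAP1. SNORA80D, inside AIMP2, had 7, 14 and 16 against 1, 3 and 2 counts (0.156). In each of these 7 members, the highest sgDAMP raw count was below the lowest sgControl raw count. The members were picked for their summed ratio and the libraries of a group agree, so this separation adds no support to the calls.

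SCARNA5 and SCARNA6 share the host ATG16L1 and had ratios on opposite sides of 1. SCARNA5 had 18, 19 and 25 counts in sgControl and 40, 37 and 28 in sgDAMP, a ratio of 1.63 (1.18 to 2.27). SCARNA6 had 16, 8 and 18 against 3, 7 and 5, a ratio of 0.343 (0.177 to 0.632). The host itself had 0.885. SCARNA18 was the other scaRNA below 0.5, with a ratio of 0.412 from 28 against 12 counts. SCARNA1, SCARNA8 and SCARNA23 had ratios of 1.97 (1.32 to 2.99), 1.7 (1.21 to 2.41) and 1.28 (1.11 to 1.48), each with an interval above 1.

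The most abundant members other than SNORA73B lay within 2-fold. SNORA74A had a ratio of 0.833 (0.754 to 0.92), SNORA23 0.866 (0.788 to 0.953) and SNORA53 0.888 (0.784 to 1.01). SNORD104, SNORD93, SNORD1B and SNORD101 lay between 0.714 and 0.797. SNORA79, inside GTF2A1, had 36, 21 and 24 counts in sgControl and 36, 37 and 42 in sgDAMP, a ratio of 1.36 (1.02 to 1.84), and was the only H/ACA member above 1 besides SNORA73B under TMM. SNORA79B had 0.893 (0.665 to 1.2) and SNORD12C, inside ZFAS1, 1.22 (0.867 to 1.73). SNORD100 had 0.556 and SNORD77B 0.508, just short of the limit. The U3 genes SNORD3A and SNORD3B-1 had 0.79 (0.566 to 1.1) and 1.12 (0.809 to 1.55), so a change was not detectable in either at this depth.

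Ratios fell on both sides of 1 within each kind of host under TMM. Of 8 members inside ribosomal protein genes 4 lay above 1 and 4 below, with a median of 0.899. The 5 members inside lncRNA hosts only had 2 above and 3 below, none past 2-fold. A host with many assigned footprints did not imply many counts for the snoRNAs inside it. The handling of overlapping genes is not given in the sources used here, and its part in these counts was not tested. GAS5 had 16400 footprints in Scramble cells and the 4 named snoRNAs inside its span had 1 in all 9 libraries, and the 10 inside SNHG1 had none. PPAN had 13 footprints over all 9 libraries and the SNORD105 pair inside it had 742.

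In poly(A)-selected mRNA the members were nearly absent, so this assay gives almost no independent view of them. No count was seen for 33 members in any of the 9 mRNA libraries, 26 had 1 to 9 counts and 13 had at least 10. Only SNORD17, at 237 bases the longest C/D member, passed the expression filter for the sgDAMP against sgControl test. It had 13, 13 and 17 counts in sgControl and 13, 30 and 11 in sgDAMP, a log2 change of 0.19 ± 0.53 (SE) with an adjusted p = 0.941 in the quasi-likelihood test of edgeR. The share of all genes called by this test was 0%, 0 of 14032, with 741 at an unadjusted p under 0.05, 21 called by DESeq2 and 0 by limma-voom. Its footprints were 44, 52 and 53 in sgControl and 52, 55 and 57 in sgDAMP (ratio 1.06, 0.842 to 1.33). The p-values measure only the spread between these libraries.

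The genes of the proteins that bind and build these particles mostly lay within 2-fold in the same footprint comparison. The 4 C/D core proteins had footprint ratios of 1.01 for FBL, 0.897 for NOP56, 0.852 for NOP58 and 1.02 for SNU13. The 4 H/ACA core proteins had 1.17 for DKC1, 1.12 for NHP2, 1.36 for NOP10 and 1.13 for GAR1. None of these 8 passed 2-fold. Over all genes 7.19% lay above 2 and 5.47% below 0.5. Of 11 assembly factors 2 lay above 2, PIH1D1, a subunit of the R2TP chaperone complex (2.06, 1.67 to 2.54), and ZNHIT6, a C/D assembly factor (2.71, 1.82 to 4.14). Of 7 Cajal body and cap factors 1 did, NOLC1, a chaperone that binds both particle classes, with 2802 against 7925 counts and a ratio of 2.72 (2.6 to 2.84). Of 7 trimming and decay factors 1 did, the exonuclease XRN1 (2.12, 1.55 to 2.92). None of these 33 genes lay below 0.5. None of the 33 passed the mRNA test, which called 0 of 14032 genes, so this does not set them apart. For the 4 genes above 2, the mRNA log2 changes were 0.94 ± 0.28 (SE) for NOLC1, 0.53 ± 0.51 for XRN1, 0.41 ± 0.39 for ZNHIT6 and -0.13 ± 0.25 for PIH1D1.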

How the data were processed

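Per the labels, poly(A) mRNA and ribosome footprints were sequenced from 3 cell groups. The deposited values are raw counts per gene made by the authors; the submitters' processing notes name Trimmomatic 0.30, HISAT2 2.1.0, SAMtools 1.10, HTSeq 0.11.2, edgeR and GRCh38. For the annotation release, strand setting and overlap handling, the sources used here give nothing. Reads from a member, its host and an antisense gene can therefore be confused.

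Symbols were paired with 61369 of 61487 gene identifiers, and spans came from RefSeq GRCh38.p14. Members and gene lists were chosen with earlier results of these data known. CPM uses gene counts only, and lines for reads assigned to no gene were left out. In mRNA, genes passing filterByExpr (minimum count 10) were TMM scaled and tested with edgeR 4.0.16 in R 4.3.3 (Benjamini-Hochberg adjusted p under 0.05). Footprint libraries of sgControl and of sgDAMP agreed within sampling noise by chi-square, so they were summed, and ratios carry exact 95% Clopper-Pearson intervals. The edgeR fit was tested on simulated counts. limma 3.58.1 and DESeq2 1.42.0 served as alternatives, beside other scalings, count minimums, folds and left-out libraries.

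Named members were, per class, the 8 with the highest footprint sums, the 3 largest and 3 smallest ratios in each footprint comparison among members with at least 100 counts, those next to the limit of 30, and the known processing snoRNAs and scaRNAs. The core proteins and every called gene of the pathway lists were named too. Members called under 100 counts, host pairs and the imprinted families were named after their values were seen.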

Additional observations from a re-analysis of the deposited data

How the results depend on the processing

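Against 6 of 39 members above 2-fold in sgDAMP footprints, 10 passed 1.5-fold upward and 0 passed 4-fold. Against 9 of 39 below 0.5, 5 lay there with coding counts, 11 passed 1.5-fold and 3 passed 4-fold. With at least 100 counts, 3 of 26 lay below 0.5. With the libraries as replicates edgeR called 11 of 32 members higher and 12 lower, with or without a replicate block. The footprint libraries of each CRISPR group agree within sampling noise and count as 1 sample. The edgeR calls on footprints, here and over all genes, therefore measure little beyond counting error. Over all 14289 genes the 1028 above became 1590 by total counts, 1755 by coding counts, 2239 past 1.5-fold and 167 past 4-fold. The 782 below became 510, 473, 1901 and 166. With at least 100 counts, 397 of 10893 genes lay above and 313 below. Of 12509 genes edgeR called 3459 higher and 3498 lower, and 3465 and 3500 with the replicate block. In mRNA the 0 genes called became 14 without a filter and 21 by DESeq2, and ran from 0 to 6 when a library was left out, 6 without sgControl replicate 3. The replicate block also called 0. Deviations of same-numbered mRNA libraries from their group means correlated at 0.445, -0.285 and -0.532. Those of differently numbered libraries correlated at -0.644 to 0.756. Deviations within a group of 3 are not independent, so these values cannot settle whether the numbers pair samples. The mRNA log2 change of SNORD17 ran from -0.39 (reversed, without sgDAMP replicate 2) to 0.41 with a library left out. Between Scramble and sgControl, the 54 members wholly higher and 7 wholly lower, of 69, became 62 and 4 by coding counts. Relative to all reads, chosen after seeing the data, they became 40 and 21, against 1.73% and 93.6% of all genes. With at least 100 counts 33 lay higher and 2 lower. With 1 Scramble library left out, 48 to 51 lay higher and 7 to 9 lower. Shares of all genes are not given for the settings other than all reads. With all reads as the denominator the C/D, H/ACA and scaRNA shares were 0.0135%, 0.00632% and 0.00156% in Scramble, 0.0037%, 0.00533% and 0.000935% in sgControl and 0.00341%, 0.00566% and 0.0014% in sgDAMP. Without mitochondrial genes they were 0.864%, 0.354% and 0.0925% in Scramble. Members with at least 100 counts gave 0.0024% for scaRNAs in sgControl and 0.0106% for C/D in sgDAMP. The cause of these shifts was not tested. Members with fewer than 100 counts have wide counting intervals, and near-identical copies are uncertain.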
